A study of Homo sapiens with 4 samples.

Results

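DNA replication licensing and S-phase genes were followed in HCT116 cells, a human colon carcinoma line, after CRISPR editing of TOP3B. The group was defined by name: 58 gene symbols were looked up in the deposited table of estimated read counts, and 57 of them were found among its 35820 rows. TOP3B encodes a topoisomerase that acts on both DNA and RNA, and the series asks what its loss does to transcription and to R-loops, in which RNA pairs with a DNA strand. Total RNA depleted of ribosomal RNA was sequenced with a stranded, paired-end kit. The knockout (KO) group held 2 libraries of clone E2-4, made with a guide RNA against exon 2 of TOP3B, and the wild-type (WT) group held 2 libraries of HCT116 cells without that edit. KO therefore stands for 1 clone, and clone and genotype cannot be told apart. No treatment is named for either group, and both were grown in the same serum-containing medium, per the labels' protocols. Whether replicates were cultured apart is not stated, so p-values measure only the spread between these libraries, which may be technical.

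Replication is prepared before S phase. The origin recognition complex (ORC) binds origins, CDC6 and CDT1 then load the ring-shaped MCM2-7 helicase onto DNA, and geminin (GMNN) blocks further loading once S phase has begun. CDC45 and the GINS complex turn the loaded ring into an active helicase, after which DNA polymerases, the sliding clamp PCNA, its loader RFC and the single-strand binding protein RPA carry out synthesis. Many of these genes are transcribed at the G1/S boundary by E2F transcription factors, which the retinoblastoma family of proteins holds in check, and their RNA is therefore used as a sign of proliferation in tumour cells.

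The E2F binding motif was looked for in the promoters, to describe the sequence of the genes. Many replication genes are known as E2F targets, so a high share of matches is no independent finding. RefSeq promoter windows (GRCh38.p14, 250 bases before to 50 bases after the start) were matched for 51 of the 58 genes. The letters searched were TTTCCCGC, TTTGGCGC, TTTCGCGC and TTTGCCGC, on both strands and with overlapping matches counted. Of the 51 genes, 26 held a match in at least 1 window (51.0%), against 1090 of 27305 genes in the RefSeq table (3.99%). The RefSeq genes were not limited to those tested here. By window the shares were 40.9% of 66 replication gene windows and 3.31% of 35116 windows. The median GC content was 65.7% in the replication gene windows and 58.7% in all windows, and the part of base composition in this difference was not tested. The matches are a description of sequence and not a measurement of binding.

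Matches were found in every matched gene of the MCM2-7 ring (4 of 4) and of the loading factors with their inhibitor and DTL (4 of 4), and in 1 of 6 ORC genes. They were found in 4 of 8 polymerase and primase genes and in 1 of 4 nucleotide supply genes. The 30-base stretches below are shown because they carry the shared motif in genes that load or form the helicase, make DNA or supply its precursors; capitals mark the motif, and overlapping copies on the 2 strands run together.
MCM2, chr3:127598402-127598431, plus strand: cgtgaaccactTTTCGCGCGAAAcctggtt
MCM3, chr6:52284898-52284927, minus strand: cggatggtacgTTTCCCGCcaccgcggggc
MCM7, chr7:100101566-100101595, minus strand: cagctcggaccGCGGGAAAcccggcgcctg
CDC6, chr17:40287875-40287904, plus strand: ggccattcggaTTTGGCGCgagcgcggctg
CDT1, chr16:88803743-88803772, plus strand: ccagggcgcccGCGGGAAAtttggcgggaa
GMNN, chr6:24775322-24775351, plus strand: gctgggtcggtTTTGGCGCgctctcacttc
DTL, chr1:212035729-212035758, plus strand: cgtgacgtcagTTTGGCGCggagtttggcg
TYMS, chr18:657603-657632, plus strand: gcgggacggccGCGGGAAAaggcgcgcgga
POLA1, chrX:24693770-24693799, plus strand: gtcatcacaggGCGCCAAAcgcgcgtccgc

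Longer upstream stretches are given for 3 genes: ORC1, the replication gene with the largest fold change between KO and WT, and PCNA and MCM6, with 1 and 4 matches. Each is the longest run of the 250 bases upstream that lies in no GENCODE 29 exon, 104 bases for ORC1, 159 for PCNA and 250 for MCM6, and capitals again mark the motif. No match lay in the ORC1 windows, which says only that these letters are not there.
ORC1, chr1:52404460-52404563, minus strand: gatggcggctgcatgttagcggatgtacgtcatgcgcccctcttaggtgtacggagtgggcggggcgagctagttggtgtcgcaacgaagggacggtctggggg
PCNA, chr20:5126627-5126785, minus strand: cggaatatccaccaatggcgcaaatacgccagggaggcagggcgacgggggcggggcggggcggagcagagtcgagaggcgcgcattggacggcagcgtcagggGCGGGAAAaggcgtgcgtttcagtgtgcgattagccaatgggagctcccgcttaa
MCM6, chr2:135876444-135876693, minus strand: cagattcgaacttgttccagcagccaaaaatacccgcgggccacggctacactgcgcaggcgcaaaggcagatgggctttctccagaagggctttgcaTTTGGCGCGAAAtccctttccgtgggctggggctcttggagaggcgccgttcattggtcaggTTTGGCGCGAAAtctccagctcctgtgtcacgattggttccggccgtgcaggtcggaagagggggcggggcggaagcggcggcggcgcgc

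The libraries held 10450048 and 16143634 estimated counts in genes for KO, and 15141919 and 11750516 for WT. Levels are given in CPM, counts per 1000000 with edgeR's TMM scaling, whose factors were 1.06 in both KO libraries and 0.858 and 1.04 in the WT libraries. A count of 0 allows 0.176 to 0.271 CPM depending on the library, by counting error only. TOP3B RNA itself was still present, at 43.9 and 54.6 CPM in KO against 57.0 and 66.4 CPM in WT (log2 fold change -0.32 ± 0.17 SE; adjusted p = 0.522 by edgeR), and this gene-level count does not check a small edit in exon 2. Of 8 colon carcinoma epithelium markers 7 were in the table, and their summed level was 1856 and 1756 CPM in KO against 3037 and 2540 CPM in WT. Most of that difference lay in KRT19, at 1204 and 1082 CPM in KO against 2240.4 and 1742 CPM in WT, and the log2 fold changes of the 7 ran from -0.96 for ELF3 to 0.41 for KRT18, with KRT8 at -0.08. KRT19 and ELF3 were the 2 that DESeq2 called, both lower in KO (log2 fold changes -0.80 and -0.96; adjusted p = 0.00290 and 0.000390 by DESeq2, 0.293 and 0.246 by edgeR). DESeq2 called 0.946% of all genes lower. The 10 markers of other cells in the table summed to 1.76 to 2.17 CPM per library, with 4 at 0 counts in all libraries. The part of the lower epithelium markers, KRT19 and ELF3 among them, in the results on replication genes was not tested.

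The replication genes as a group were centred near 0, as the whole table was, and ORC1 was the single one of them that any of the 3 tools called with all libraries. Of the 56 genes tested, 25 had a log2 fold change above 0 and 31 below, with a median of -0.05 beside -0.01 for all 12269 genes tested, and 44 of the 56 lay within 0.5 of 0 on the log2 scale. With total counts and no scaling factors the median was 0.11, beside 0.14 for all genes. The log2 fold changes ran from -1.10 for RRM1 to 1.26 for ORC1. edgeR's quasi-likelihood test with Benjamini-Hochberg adjustment called 0 of the 56 at an adjusted p under 0.05, and it called 0.00815% of all genes tested, a single gene. limma-voom also called 0, and DESeq2 called 1 of 57, ORC1, higher in KO, where it called 1.45% of all genes, 0.504% higher and 0.946% lower. At an unadjusted p under 0.05 edgeR gave 3 replication genes, ORC1 and POLD3 higher and RFC5 lower, against 11.2% of all genes, 4.97% higher and 6.21% lower. In bulk RNA a change in the share of cells in S phase cannot be told apart from a change in RNA per cell.

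**Figure D1:**
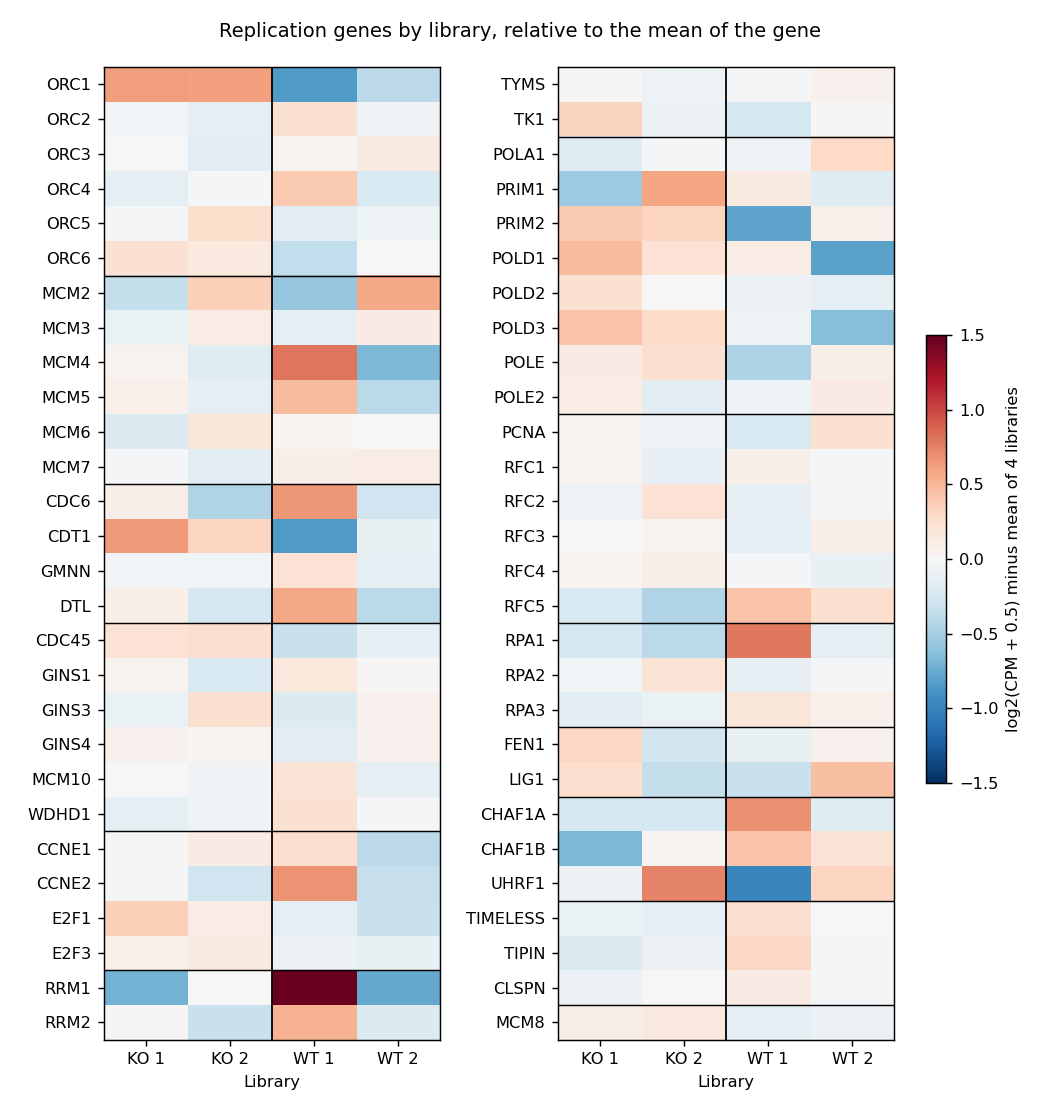
Level of the 56 tested replication genes in each library (columns: KO 1, KO 2, WT 1, WT 2), as log2(CPM + 0.5) minus the mean of the gene over the 4 libraries; red is above and blue below that mean, colours stop at 1.5, and horizontal lines part the roles. ORC1 is red in both KO libraries and blue in both WT libraries, while for RRM1 WT replicate 1 alone is dark red.

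**Figure D2:**
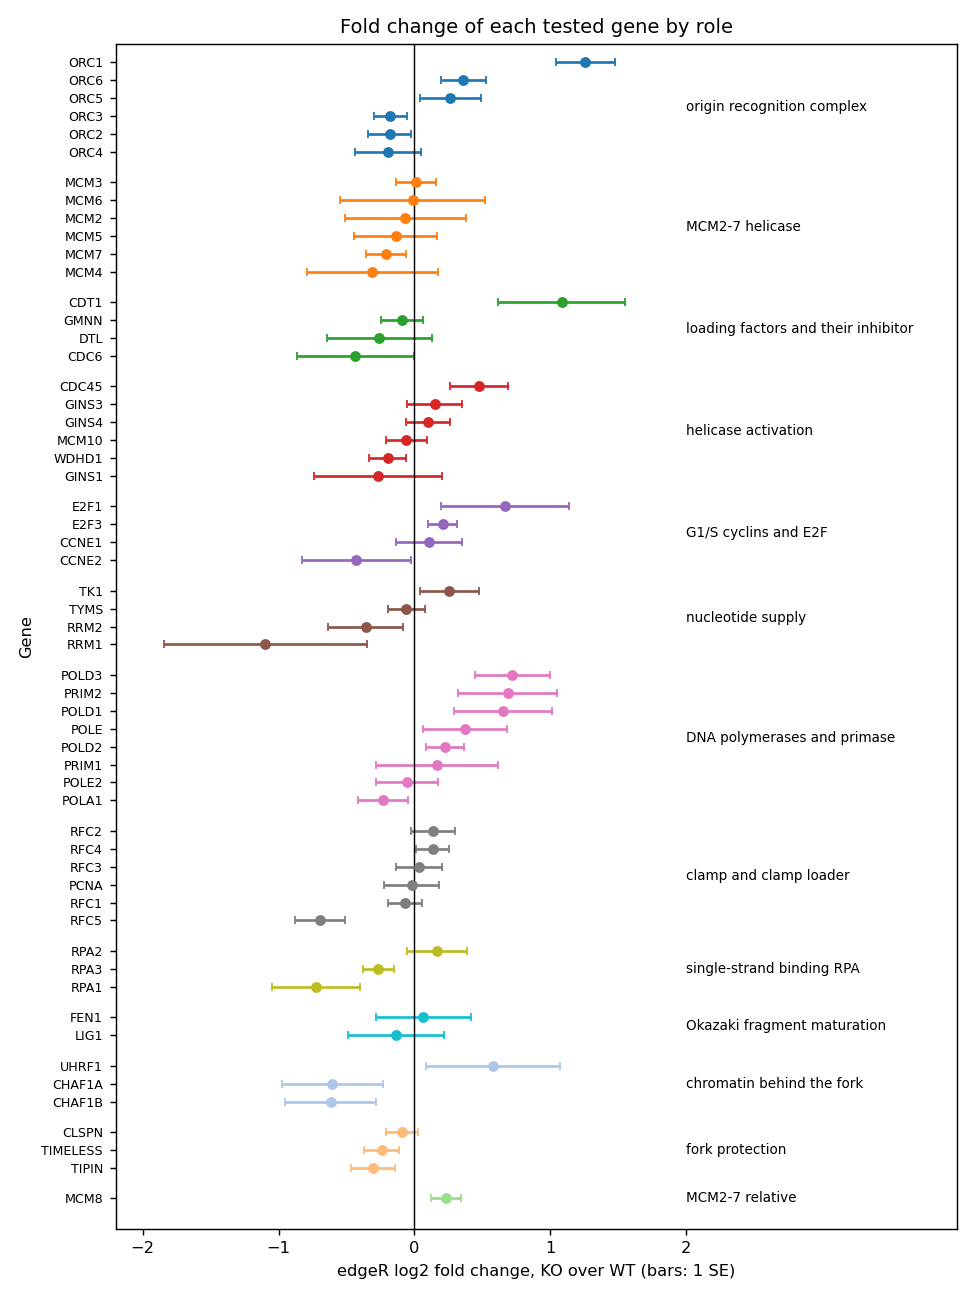
edgeR log2 fold change of KO over WT for each tested replication gene (x axis, bars are 1 SE), grouped by role down the page. Most points lie within 0.5 of 0, and ORC1 stands at 1.26 above the other 5 ORC subunits, which lie between -0.19 and 0.36.

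Complete separation of the groups was about as frequent here as elsewhere. Both KO libraries lay above both WT libraries for 14 of the 56 genes (25.0%), against 23.5% of all genes tested. Both lay below for 10 genes (17.9%), also against 23.5%. These shares are near the background, so they are no result about replication genes. The plot of fold change against level places the replication genes inside the cloud of all genes at the same level.

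**Figure D3:**
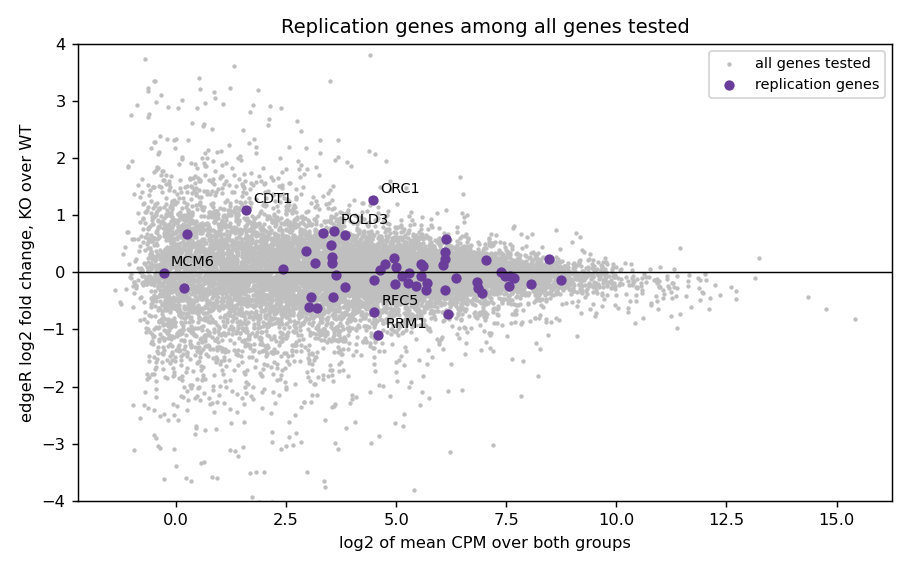
edgeR log2 fold change of KO over WT (y axis) against the log2 of the mean CPM over both groups (x axis) for all 12269 genes tested (grey) and the 56 replication genes (purple); 75 genes beyond 4 in either direction are off the axis. ORC1 is the uppermost purple point, at 1.26, and RRM1 the lowest, at -1.10.

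Of the G1/S regulators, which start the programme, none passed. CCNE1, the cyclin E that activates CDK2, had 48.9 and 52.7 CPM in KO and 57.6 and 36.7 CPM in WT. The KO values lay between the WT values (log2 fold change 0.11 ± 0.24 SE; adjusted p = 0.877 by edgeR). CCNE2, the other cyclin E gene, had 11.1 and 9.09 CPM in KO and 18.3 and 8.75 CPM in WT. E2F3, an activating E2F, had 139.6 and 144 CPM in KO and 124 and 122 CPM in WT. Both KO values were higher, by a small fold that did not pass (log2 fold change 0.21 ± 0.11 SE; adjusted p = 0.517 by edgeR and 0.857 by DESeq2). A further row had 18 and 22 counts in KO and 13 and 10 counts in WT, for a log2 fold change of 0.67 ± 0.47 SE (adjusted p = 0.601 by edgeR). It is named E2F1 in the count table and E2F2 in the RPKM table. Its implied length of 14376 bases exceeds the genomic span of E2F1 (10722 bases) and not that of E2F2 (24791 bases). That does not settle the name, because RRM2 also has an implied length (13708 bases) above its span (10722 bases). Its name is therefore uncertain, and neither gene can be given a level of its own.

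ORC1 had the largest fold change of the replication genes. It encodes the largest ORC subunit, an ATPase that is needed for origin binding and is degraded in human cells after S phase begins. Its level was 31.5 and 31.3 CPM in KO and 11.01 and 15.2 CPM in WT, from 349 and 533 counts in KO and 143 and 186 counts in WT. Both KO libraries lay above both WT libraries and nearly coincided. The means were 31.4 ± 0.170 CPM in KO and 13.1 ± 2.98 CPM in WT (SD, n = 2 each), a log2 fold change of 1.26 (SE 0.22). DESeq2 called it higher (adjusted p = 0.00757), while edgeR did not over all genes (adjusted p = 0.253; unadjusted p = 0.00206 from the same fit across all genes). In fits of 3 libraries, chosen after seeing the data for DESeq2, the DESeq2 call was lost without KO replicate 1 (adjusted p = 0.700), KO replicate 2 (0.872) or WT replicate 1 (0.529) and held without WT replicate 2 (0.00701), where edgeR also called it (adjusted p = 0.0233). A fit without 1 library has replicates in the other group only, and it assumes that the lone library varies like them. The fits without WT replicate 1 and without WT replicate 2 share the same KO pair, and only the second kept the DESeq2 call. Without WT replicate 2 edgeR also called far more genes over the whole table than with all libraries. Over all 4 such fits the edgeR log2 fold change stayed between 1.04 and 1.52. The gene length that RPKM implied for ORC1 was 31601 bases, against 3157 bases for its longest transcript. The part of this in the ORC1 fold was not tested.

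The genes beside ORC1 on chromosome 1 had log2 fold changes near 0. PRPF38A, which encodes a splicing factor and starts 105 bases away in the opposite direction (GENCODE 29, GRCh38), had 41.7 and 35.01 CPM in KO and 45.6 and 37.7 CPM in WT. Its groups overlapped (log2 fold change -0.12 ± 0.18 SE; adjusted p = 0.796 by edgeR). CC2D1B, the neighbour on the other side, had 44.8 and 45.2 CPM in KO and 46.5 and 44.6 CPM in WT (log2 fold change -0.02 ± 0.13 SE; adjusted p = 0.963 by edgeR). No protein-coding gene overlaps ORC1 in that annotation. Both neighbours were looked up after the value of ORC1 had been seen.

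The other ORC subunits showed no fold of that size. ORC6, the smallest subunit, had 79.9 and 75.4 CPM in KO and 52.9 and 68.1 CPM in WT, higher in both KO libraries (log2 fold change 0.36 ± 0.16 SE; adjusted p = 0.489 by edgeR and 0.720 by DESeq2). ORC5 had 11.4 and 13.9 CPM in KO and 10.2 and 10.9 CPM in WT. ORC3, a core subunit, had 114 and 102 CPM in KO and 117 and 126 CPM in WT, slightly lower in both KO libraries. For ORC2 and ORC4 the groups overlapped, with log2 fold changes of -0.18 and -0.19. The difference in fold between ORC1 and the other subunits was not tested.

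**Figure D4:**
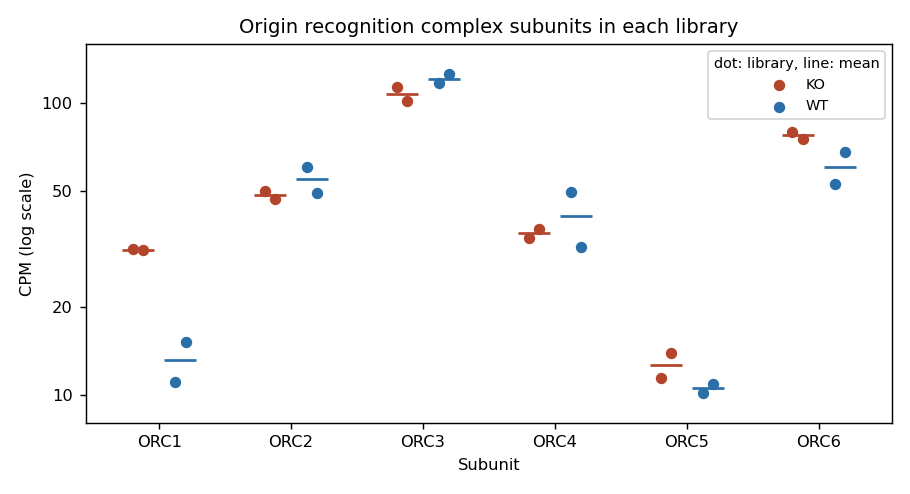
Level of each ORC subunit in CPM (y axis, log scale) in the KO libraries (red, left of each pair) and WT libraries (blue, right), with a dot per library and a line at the mean. The 2 KO dots of ORC1 at 31.5 and 31.3 CPM lie above its WT dots at 11.01 and 15.2 CPM; heights are to be compared within a subunit and not between subunits.

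Of the factors that load the helicase, CDT1 had the next largest positive fold. CDT1 brings MCM2-7 to ORC and CDC6. It had 51 and 61 counts in KO and 17 and 31 counts in WT, or 4.60 and 3.58 CPM in KO and 1.31 and 2.54 CPM in WT. Both KO libraries were higher (log2 fold change 1.08 ± 0.47 SE; adjusted p = 0.475 by edgeR and 0.779 by DESeq2), and with 1 library left out the value ran from 0.68 to 1.65. CDC6, the ATPase that works with ORC, had 8.48 and 5.69 CPM in KO and 12.7 and 6.38 CPM in WT. GMNN, the inhibitor of CDT1, had 79.9 and 79.5 CPM in KO and 95.2 and 74.6 CPM in WT (log2 fold change -0.09 ± 0.16 SE; adjusted p = 0.830 by edgeR). DTL, the adaptor through which a ubiquitin ligase destroys CDT1 in S phase, had 14.7 and 11.4 CPM in KO and 20.9 and 10.3 CPM in WT. For CDC6 and DTL WT replicate 1 was the highest library, and without it their log2 fold changes were 0.15 and 0.34 in place of -0.44 ± 0.43 SE and -0.26 ± 0.38 SE (adjusted p = 0.694 and 0.800 by edgeR with all libraries).

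The 6 genes of the MCM2-7 ring lay close to 0, with log2 fold changes from -0.31 to 0.01 and SE of 0.15 to 0.54, and MCM2 changed sign to 0.040 with total counts and no scaling factors. MCM3 had 154 and 179 CPM in KO and 150.5 and 179.5 CPM in WT, almost the same in both groups. MCM7 had 30.4 and 27.5 CPM in KO and 33.3 and 33.6 CPM in WT, lower in both KO libraries by a fold that did not pass (log2 fold change -0.21 ± 0.15 SE; adjusted p = 0.606 by edgeR). It shares its locus with AP4M1 on the opposite strand. MCM2 had 25.8 and 42.8 CPM in KO and 22.3 and 49.7 CPM in WT, and MCM4 had 49.6 and 42.1 CPM in KO and 83.8 and 29.7 CPM in WT. For both genes the WT libraries were over 2-fold apart and enclosed the KO values (for MCM2, log2 fold change -0.07 ± 0.45 SE; adjusted p = 0.961 by edgeR). MCM5 had 436 and 374 CPM in KO and 577 and 314 CPM in WT. MCM6 had 7 and 17 counts in KO and 11 and 10 counts in WT, although its protein is part of the same ring as MCM5 with 3842 to 7497 counts per library. Such gaps are why levels are compared here only within a gene. What sequence the counts of a gene cover is not stated, and its part in the folds within a gene was not tested. MCM8, a related helicase of recombination that is not in the ring, had 373 and 388 CPM in KO and 317 and 331 CPM in WT, higher in both KO libraries (log2 fold change 0.23 ± 0.11 SE; adjusted p = 0.497 by edgeR and 0.717 by DESeq2).

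Among the factors that activate the helicase, CDC45 had the smallest p. It had 13.3 and 13.6 CPM in KO and 8.93 and 10.4 CPM in WT, higher in both KO libraries (log2 fold change 0.48 ± 0.22 SE; adjusted p = 0.488 by edgeR and 0.855 by DESeq2). The GINS genes showed no shared direction, with log2 fold changes of 0.15 for GINS3, 0.10 for GINS4 and -0.27 for GINS1, the last from 13 to 17 counts per library. MCM10, which helps to start unwinding, had 176.5 and 171 CPM in KO and 202 and 159 CPM in WT. WDHD1, which links the helicase to the primase complex, had 243 and 256 CPM in KO and 312 and 260.5 CPM in WT, lower in both KO libraries (log2 fold change -0.20 ± 0.14 SE).

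Of 8 DNA polymerase and primase genes tested, 6 had a log2 fold change above 0 and the median was 0.30, and both KO libraries lay above both WT libraries for 5, against 23.5% of all genes. By edgeR 0 of the 8 passed over all genes, and DESeq2 called 0. At an unadjusted p under 0.05 edgeR gave 1, against 11.2% of all genes. That one was POLD3, an accessory subunit of polymerase delta, the lagging-strand polymerase. It had 15.7 and 14.1 CPM in KO and 10.9 and 7.20 CPM in WT (log2 fold change 0.72 ± 0.28 SE; adjusted p = 0.445 by edgeR and 0.631 by DESeq2), or 0.47 without WT replicate 2. POLD1, the catalytic subunit of polymerase delta, had 19.0 and 15.8 CPM in KO and 14.6 and 7.52 CPM in WT. POLD2, a further subunit, had 80.7 and 68.3 CPM in KO and 64.6 and 62.6 CPM in WT. POLD1, POLD2 and POLD3 were higher in both KO libraries without passing the test, while POLD4, the fourth subunit, which is not among the 58, had 8.48 and 12.8 CPM in KO and 9.16 and 11.9 CPM in WT (log2 fold change 0.02).

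POLE, the catalytic subunit of the leading-strand polymerase epsilon, had 8.39 and 9.15 CPM in KO and 5.39 and 8.18 CPM in WT (log2 fold change 0.37 ± 0.31 SE; adjusted p = 0.647 by edgeR), or 0.10 without WT replicate 1 and 0.72 without WT replicate 2. Its partner POLE2 had a log2 fold change of -0.05. POLA1, the catalytic subunit of polymerase alpha, had 38.2 and 42.4 CPM in KO and 41.1 and 53.6 CPM in WT, with groups that overlapped (log2 fold change -0.23 ± 0.18 SE; adjusted p = 0.634 by edgeR), or -0.01 without WT replicate 2 and -0.41 without WT replicate 1. PRIM2, the large primase subunit, had 12.7 and 12.1 CPM in KO and 5.31 and 10.1 CPM in WT. PRIM1, the small primase subunit, had 5.69 and 13.1 CPM in KO and 9.39 and 7.44 CPM in WT, the only replication gene tested with KO libraries over 2-fold apart. POLA2, with 18 and 8 counts in KO and 0 and 5 counts in WT, was too low for edgeR's filter and is given no fold.

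PCNA, the sliding clamp and a standard marker of S phase, did not separate the groups. It had 40.4 and 37.2 CPM in KO and 32.9 and 45.7 CPM in WT (log2 fold change -0.02 ± 0.20 SE; adjusted p = 0.976 by edgeR). Of the clamp loader subunits, RFC1 to RFC4 had log2 fold changes between -0.07 and 0.14. RFC5, one of the small subunits common to the RFC-type clamp loaders, had the lowest fold of the 5. It had 18.7 and 15.9 CPM in KO and 29.7 and 26.1 CPM in WT, lower in both KO libraries (log2 fold change -0.69 ± 0.18 SE; edgeR unadjusted p = 0.0126; adjusted p = 0.349 by edgeR and 0.332 by DESeq2). RFC5 overlaps WSB2 on the opposite strand, and no source used here gives the strand setting of the counting.

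In the RPA trimer, which coats single-stranded DNA, the large and the small subunit had log2 fold changes below 0, and the middle subunit had 0.17. The gene of the large subunit, RPA1, overlaps SMYD4, and that of the small subunit, RPA3, overlaps UMAD1. Of all genes tested, 23.5% were lower in both KO libraries. RPA3 had 103 and 108 CPM in KO and 132 and 122 CPM in WT (log2 fold change -0.27 ± 0.12 SE; adjusted p = 0.475 by edgeR and 0.777 by DESeq2). RPA1 had 57.6 and 51.7 CPM in KO and 119 and 61.5 CPM in WT (log2 fold change -0.72 ± 0.32 SE; adjusted p = 0.485 by edgeR and 0.438 by DESeq2). Both KO libraries were lower for each, but most of the RPA1 fold came from WT replicate 1: without it the log2 fold change was -0.17, and without WT replicate 2 it was -1.11 (edgeR adjusted p = 0.0181), which sets the high WT library alone against KO with the spread of the KO pair only. RPA2, the middle subunit, had 11.2 and 13.4 CPM in KO and 10.6 and 11.3 CPM in WT.

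The genes that finish lagging-strand pieces overlapped between groups. FEN1, the nuclease that trims the flaps, had 6.77 and 4.34 CPM in KO and 4.93 and 5.64 CPM in WT (log2 fold change 0.07 ± 0.35 SE; adjusted p = 0.948 by edgeR). LIG1, the ligase that seals the nicks, had 26.1 and 16.9 CPM in KO and 17.2 and 29.9 CPM in WT (log2 fold change -0.13 ± 0.35 SE; adjusted p = 0.896 by edgeR).

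Both tested subunits of chromatin assembly factor 1, which lays nucleosomes on new DNA, were lower in both KO libraries, as were 23.5% of all genes tested. CHAF1A overlaps the protein-coding gene UBXN6, and CHAF1B overlaps MORC3. CHAF1A had 6.50 and 6.33 CPM in KO and 12.7 and 6.79 CPM in WT (log2 fold change -0.60 ± 0.37 SE; adjusted p = 0.557 by edgeR), and without WT replicate 1 its log2 fold change was -0.08. CHAF1B had 5.32 and 9.09 CPM in KO and 12.0 and 10.2 CPM in WT (log2 fold change -0.62 ± 0.34 SE; adjusted p = 0.526 by edgeR and 0.859 by DESeq2), or -0.29 without KO replicate 1 and -1.06 without KO replicate 2. UHRF1, which recruits the maintenance DNA methyltransferase to new DNA, had 60.1 and 107 CPM in KO and 32.3 and 79.9 CPM in WT. Its replicates differed more than its groups (log2 fold change 0.58 ± 0.49 SE; adjusted p = 0.657 by edgeR), and with 1 library left out the fold ran from 0.07 without WT replicate 1 to 1.39 without WT replicate 2.

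The fork protection genes, which hold the helicase and polymerases together and signal stalling, all had log2 fold changes below 0, except that CLSPN came to 0.074 with total counts and no scaling factors. TIPIN had 59.5 and 64.4 CPM in KO and 85.4 and 67.7 CPM in WT (log2 fold change -0.30 ± 0.16 SE; adjusted p = 0.520 by edgeR and 0.847 by DESeq2), or -0.13 without WT replicate 1. Its partner TIMELESS had 174 and 171 CPM in KO and 220.03 and 188 CPM in WT. Both KO libraries were lower for these 2 genes, as for 23.5% of all genes tested, and neither gene passed. CLSPN, the mediator that activates the checkpoint kinase CHK1, had 191 and 205 CPM in KO and 222 and 199 CPM in WT (log2 fold change -0.09 ± 0.12 SE; adjusted p = 0.775 by edgeR).

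Of the genes that supply deoxynucleotides, RRM1 had the lowest log2 fold change of all replication genes, and 1 library set it. RRM1, the large subunit of ribonucleotide reductase, had 11.6 and 19.1 CPM in KO and 54.6 and 11.1 CPM in WT. WT replicate 1 was high, and WT replicate 2 lay below both KO libraries. With all libraries it came to -1.10 ± 0.75 SE on the log2 scale (adjusted p = 0.589 by edgeR and 0.693 by DESeq2), but to 0.47 without WT replicate 1, and -1.81 without WT replicate 2 (edgeR adjusted p = 0.0316). The last value sets the single high WT library against KO, with replicates in KO only. RRM2, the small subunit, had 121 and 95.4 CPM in KO and 173 and 104 CPM in WT (log2 fold change -0.36 ± 0.27 SE; adjusted p = 0.623 by edgeR). TYMS, the thymidylate synthase, had 47.7 and 44.7 CPM in KO and 46.7 and 49.5 CPM in WT (log2 fold change -0.06 ± 0.13 SE; adjusted p = 0.880 by edgeR). TK1, the thymidine kinase of S phase, had 38.9 and 28.9 CPM in KO and 25.4 and 31.2 CPM in WT.

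Several replication genes differed more between the WT replicates than between the groups. The WT libraries were over 2-fold apart for 6 of the 56 genes (10.7%), against 11.5% of all genes tested. The KO libraries were over 2-fold apart for 1 (1.79%), against 9.64%. The 6 genes were RRM1, MCM4, UHRF1, MCM2, CCNE2 and DTL, and they did not go the same way. WT replicate 1 was the higher WT library for RRM1, MCM4, CCNE2 and DTL and the lower one for UHRF1 and MCM2. WT replicate 1 was the highest of the 4 libraries for 23 of the 56 genes (41.1%), against 30.6% of all genes.

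**Figure D5:**
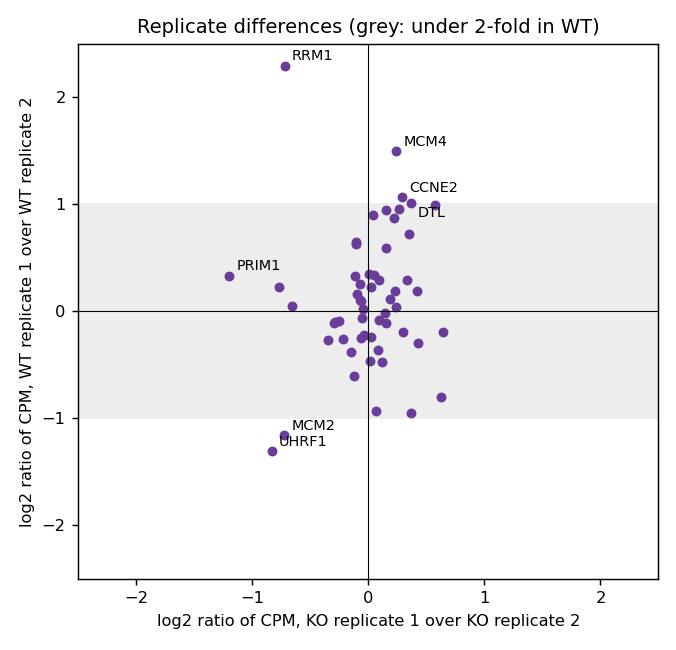
log2 ratio of CPM between the WT replicates (y axis) against that between the KO replicates (x axis) for the 56 tested replication genes; the grey band marks under 2-fold in WT. The 6 named genes outside the band are RRM1, MCM4, CCNE2 and DTL above it and MCM2 and UHRF1 below, and PRIM1 is the named gene over 2-fold apart in KO.

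The presence of an E2F motif was not accompanied by a common direction. The 24 tested genes with a match had a median log2 fold change of -0.06, with 9 above 0, and the 25 tested genes whose windows held none had a median of 0.07, with 13 above 0. ORC1 and RFC5 were among the genes without a match, and CDT1 was among those with one. The row of uncertain name was counted as E2F1, and both E2F1 and E2F2 held a match.

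Further genes of replication and nucleotide metabolism, outside the 58, were also centred near 0. Of 49 listed, 44 were tested, 25 with a log2 fold change above 0, and the median was 0.04. Both KO libraries lay above both WT libraries for 15 of the 44 (34.1%) and below for 9 (20.5%), against 23.5% of all genes for each. By edgeR 0 passed over all genes and DESeq2 called 0, while 4 higher and 2 lower of the 44 had an unadjusted p under 0.05, against 4.97% higher and 6.21% lower of all genes. The 4 higher were TYMP, a gene of nucleotide metabolism, with a log2 fold change of 1.06, and TONSL, TICRR and FBXO5, with 0.46, 0.43 and 0.38. The 2 lower were DONSON and USP1, which had the smallest p of the list. DONSON, which helps GINS join the loaded helicase, had 34.7 and 34.8 CPM in KO and 73.0 and 49.7 CPM in WT (log2 fold change -0.82 ± 0.22 SE; adjusted p = 0.349 by edgeR and 0.123 by DESeq2). USP1, which removes ubiquitin from PCNA, had 24.6 and 24.5 CPM in KO and 33.6 and 46.1 CPM in WT (log2 fold change -0.70 ± 0.20 SE; adjusted p = 0.379 by edgeR). Both were lower in both KO libraries.

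Among 24 tested genes of G1/S control, 15 had a log2 fold change above 0 and the median was 0.09. edgeR called 0, with 1 higher and 3 lower at an unadjusted p under 0.05, against 4.97% higher and 6.21% lower of all genes. DESeq2 called 1, against 1.45% of all genes. That gene was RBL2, which encodes p130, a retinoblastoma family protein that represses E2F target genes in resting cells. RBL2 had 0.722 and 0.586 CPM in KO and 11.8 and 2.94 CPM in WT, from 8 and 10 counts in KO and 153 and 36 counts in WT. The KO libraries lay below both WT libraries, and the WT libraries were themselves 4.00-fold apart (log2 fold change -3.49 ± 0.80 SE; adjusted p = 0.0110 by DESeq2 and 0.304 by edgeR). The other genes of that family did not share its direction. RB1 had 27 and 35 counts in KO and 14 and 14 counts in WT (log2 fold change 1.00 ± 0.42 SE, adjusted p = 0.467 by edgeR). RBL1 had a log2 fold change of 0.10.

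Of 29 tested mitotic genes, which peak after S phase, 16 had a log2 fold change above 0 and the median was 0.12. Both KO libraries lay above both WT libraries for 12 of them (41.4%) and below for 3 (10.3%), against 23.5% of all genes for each. Both edgeR and DESeq2 called 0. At an unadjusted p under 0.05 edgeR gave 2 higher and 0 lower, against 4.97% higher and 6.21% lower of all genes. CENPF, a kinetochore protein, had 10.3 and 7.21 CPM in KO and 2.54 and 2.45 CPM in WT (log2 fold change 1.80 ± 0.33 SE; adjusted p = 0.260 by edgeR and 0.0523 by DESeq2). CDK1, the kinase that drives entry into mitosis, had 114 and 128 CPM in KO and 101 and 86.6 CPM in WT (log2 fold change 0.36 ± 0.14 SE; adjusted p = 0.445 by edgeR). Replication-dependent histone genes, whose RNA is made in S phase, were listed by 56 older symbols, which reached 11 rows through RefSeq synonyms, of which 8 were tested with a median of -0.17. edgeR and DESeq2 called 0 of these, and 2 were lower at an edgeR unadjusted p under 0.05, against 6.21% of all genes. They were H2AC6, with 7.49 and 8.74 CPM in KO and 14.9 and 17.3 CPM in WT, and H2BC5, with 1.80 and 1.88 CPM in KO and 4.62 and 4.58 CPM in WT (edgeR adjusted p = 0.304 and 0.349).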

How the data were processed

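The authors deposited 2 tables of the 4 libraries: estimated counts per gene, and RPKM. Per the submitters' processing notes, Salmon 1.10.1 was used with hg19; annotation, gene summary and strand setting have no stated source. The deposited counts are Salmon's expected counts as whole numbers. RPKM deposited by the authors, scaled by length and library total, served only for the gene length it implies. That length was a median of 6.26 times the longest GENCODE 29 transcript of the replication genes. It exceeded that transcript for 56 of the 57 genes in the table. For ORC1 it was 31601 bases, and the genomic span is 31631. Levels were therefore not compared between genes. What sequence was counted for each gene is not stated, and its part in the folds within a gene was not tested. Of the 57 genes in the table, 16 overlap another protein-coding gene in GENCODE 29 and are uncertain. They are ORC4, MCM2, MCM7, CCNE2, RRM2, TYMS, POLA2, PRIM1, POLD1, RFC4, RFC5, RPA1, RPA3, FEN1, CHAF1A and CHAF1B.

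Tests ran on all genes: edgeR 4.0.16 (R 4.3.3; estimateDisp, glmQLFit, glmQLFTest, TMM, filterByExpr, genotype alone), Benjamini-Hochberg over 12269 genes, threshold 0.05. The SE is the log2 fold change divided by the square root of F. Alternatives were DESeq2 1.42.0 (Wald test, adjusted p for 12899 genes), limma-voom 3.58.1, other scaling, no filter, a replicate block and each library left out. Scripts were tested on simulated data. The replication genes and lists were chosen with earlier results of these data known. Named with full values were genes with an edgeR unadjusted p or DESeq2 adjusted p under 0.05, the smallest p of each role and the best known genes of each role; from other lists, DESeq2 calls or else the 2 smallest p.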

Additional observations from a re-analysis of the deposited data

How the results depend on the processing

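The count of genes called over the whole table was 1 by edgeR and moved to 187 with DESeq2, 42 with total counts and no scaling factors and 34 with no filter on low counts; with 1 library left out it ran from 0 to 575, the highest without WT replicate 2. For the replication genes edgeR called 0, DESeq2 called 1, and with 1 library left out edgeR called 0 to 3; the 3, called without WT replicate 2, were ORC1, RRM1 and RPA1. The median log2 fold change of the replication genes, -0.05, became 0.11 with total counts and no scaling factors, where the median of all genes was 0.14, and ran from -0.078 to 0.089 with 1 library left out. Leaving out libraries in DESeq2, chosen after seeing the data, gave 75, 72, 85 and 721 genes without KO replicate 1, KO replicate 2, WT replicate 1 and WT replicate 2, and 0 to 7 replication genes; the 7, without WT replicate 2, were ORC1 and UHRF1 higher and MCM4, MCM5, RRM1, RRM2 and RPA1 lower.

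Of the 29 replication genes chosen by the rule for named genes, 17 kept the sign of their fold in every alternative run, ORC1, CDT1, POLD3, RFC5 and RPA1 among them. With total counts the fold changed sign to 0.040 for MCM2, 0.082 for GMNN, 0.10 for TYMS, 0.12 for PCNA and 0.074 for CLSPN, and with limma-voom to 0.049 for MCM2 and -0.00021 for FEN1. With 1 library left out the range crossed 0 for MCM2 (-0.53 to 0.64), CDC6 (-0.83 to 0.15), GMNN (-0.24 to 0.10), DTL (-0.66 to 0.34), CCNE1 (-0.17 to 0.47), RRM1 (-1.81 to 0.47), RRM2 (-0.66 to 0.050), PCNA (-0.24 to 0.25), FEN1 (-0.28 to 0.36) and LIG1 (-0.48 to 0.33). None of these values passed edgeR except RRM1 without WT replicate 2, and the cause was not tested. With the replicate number as a replicate block, edgeR called 1 gene and 0 replication genes, and the median was -0.05. Libraries of the same number had a correlation of deviations of 0.06 across 12269 genes. With 2 libraries per group the opposite pairing gives the same value with the sign reversed. The labels do not say what libraries of the same number share. Depth limits POLA2, MCM6, GINS1, the E2F1 row and CDT1, each with at most 61 counts in any library.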
